A study of Mus musculus with 2 samples.

Results

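The 10 genes described here mark the epithelial and the mesenchymal state of cells. They were chosen by name, 10 of the 37273 annotated genes examined, and comprise the epithelial genes *Cdh1*, *Epcam*, *Krt8*, *Krt18* and *Krt19* and the mesenchymal genes *Cdh2*, *Vim*, *Fn1*, *Snai1* and *Zeb2*. Reads were counted over their exons in the non-polyadenylated (NPA) RNA of mouse R1 embryonic stem cells (ESCs) and of neuronal progenitor cells (NPCs) made from them. R1 is a male ESC line, and both groups share its genotype. The ESCs, at passage 18, grew with leukemia inhibitory factor and serum on mouse embryonic fibroblasts that had been stopped from dividing with mitomycin C. The NPCs spent 4 days without that factor as embryoid bodies, were replated on poly-L-ornithine and fibronectin in medium with insulin, transferrin, selenium and fibronectin, and were collected on day 7. The protocol describes extraction of total RNA and does not mention removal of the feeder fibroblasts.

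Epithelial cells are held together by E-cadherin and desmosomes and are braced by keratin filaments. In an epithelial-mesenchymal transition, transcription factors of the Snail and Zeb families repress E-cadherin and other epithelial genes, N-cadherin takes the place of E-cadherin, and vimentin filaments and a fibronectin matrix become prominent. ESC colonies are themselves epithelial in many respects. Cells that leave this state pass through such transitions when mesoderm and endoderm form, and neural progenitors are known for N-cadherin and vimentin, while endoderm is known for *Krt8* and *Krt18*.

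Each cell type was sequenced as 1 library. A test between the cell types is therefore not given, ratios compare the libraries at hand, and all intervals are exact 95% intervals for counting error only. The libraries held 4271306 reads (ESCs) and 4399729 reads (NPCs), so that a single read is worth 0.234 and 0.227 RPM, which scales each library to 1000000 reads. RPKM is RPM per kilobase of exon and is the scale on which genes are compared with each other. Levels here are those in RNA depleted of poly(A) RNA. The part of each gene's RNA that remained after depletion was not measured, so an order of levels need not hold for total RNA. Over the 14859 genes with at least 10 reads in both libraries together, the median ratio of NPC to ESC was 1.27, or 0.35 on the log2 scale. Where a value is called relative to the median gene, this 0.35 has been taken off. Fewer cells of a type and less RNA per cell cannot be told apart in such bulk samples.

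The cultures were checked against marker lists. Of 10 pluripotency genes, 9 were more than 2-fold lower in the NPC library, where 13.3% of all genes tested were. The median log2 ratio of the 10 was -2.03, and *Pou5f1* had 2623 reads in ESCs and 724 in NPCs. Markers of the neural label were few. Of 10 annotated neural progenitor genes 5 reached 10 reads and 1 of them, *Pax6* with 1 and 12 reads, was more than 2-fold higher. *Fabp7*, *Dcx* and *Hes5* had 2, 3 and 2 reads in the NPC library. By contrast, 11 of 12 tested genes of extraembryonic endoderm were more than 2-fold higher, where 25.5% of all genes tested were. Their summed level was 347 RPM in ESCs and 7917 RPM in NPCs, with *Ttr* at 0 reads in ESCs. Most of this sum came from *Col4a1* (200 and 4717 RPM) and *Lama1* (100 and 2352 RPM). The fibroblast genes summed to 138 RPM in ESCs and 104 RPM in NPCs. All results on the NPC library below were measured beside these marker levels, and their part in the results was not tested.

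All 10 genes had at least 10 reads. In the NPC library 6 of them were more than 2-fold higher, namely *Krt8*, *Krt18*, *Krt19*, *Cdh2*, *Snai1* and *Zeb2*, and 0 were more than 2-fold lower. Over all genes tested, 25.5% were more than 2-fold higher and 13.3% lower. The 6 genes comprised 3 of the 5 epithelial and 3 of the 5 mesenchymal genes. Higher by any amount were 8 of the 10, 4 on each side, where 62.9% of all genes tested were. *Cdh1*, *Epcam*, *Vim* and *Fn1* lay within 2-fold. Relative to the median gene, the same 6 genes were more than 2-fold higher, where 16.5% of all genes were, and *Fn1* was more than 2-fold lower, where 19.3% were.

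**Figure D1:**
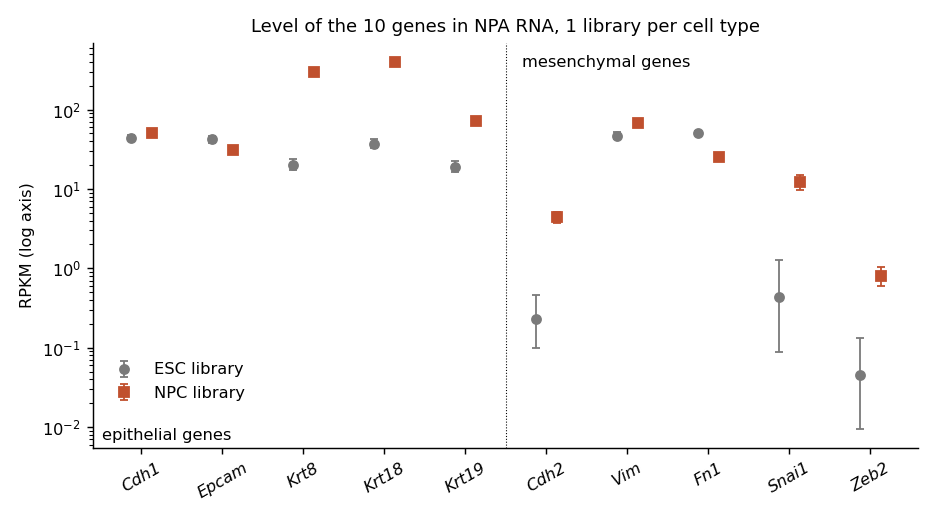
RPKM (log axis) of the 10 genes in the ESC library (grey circles) and the NPC library (orange squares), with exact Poisson 95% intervals. *Krt8* and *Krt18* stand at 297 and 392 RPKM in NPCs, above all other points, while *Cdh1* stands at 44.5 and 50.3 and *Zeb2* is the lowest gene in both libraries.

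The order of the levels differed between the libraries. In ESCs *Fn1* (50.9 RPKM), *Vim* (47.0), *Cdh1* (44.5), *Epcam* (42.2) and *Krt18* (37.3) formed a group in which the interval of each gene overlapped that of its neighbour. *Krt8* (20.2) and *Krt19* (19.1) followed and could not be ordered between themselves, and *Snai1* (0.433), *Cdh2* (0.232) and *Zeb2* (0.0457) were far below with overlapping intervals between neighbours. In NPCs *Krt18* (392) and *Krt8* (297) came first, then *Krt19* (71.4) and *Vim* (68.7), whose intervals overlapped, then *Cdh1* (50.3), *Epcam* (31.2), *Fn1* (25.6), *Snai1* (12.2), *Cdh2* (4.40) and *Zeb2* (0.799), each outside the interval of its neighbour. Among 12711 protein-coding genes with at least 10 reads, 99.7% lay below *Krt18* and 99.4% below *Krt8* in NPCs, against 93.5% and 86.8% in ESCs. These levels of *Krt8* leave out reads placed at a copy of part of its sequence, described below. With those reads *Krt8* stood at 42.0 RPKM in ESCs and at 618 RPKM in NPCs, there above *Krt18*.

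The cadherins hold neighbouring cells together through calcium-dependent contacts of like molecules. *Cdh1*, which encodes E-cadherin, lies on the plus strand at chr8:109127251-109194146 of mm9 (ENSMUSG00000000303.6) and had 869 reads in ESCs and 1012 in NPCs. Its level was 44.5 RPKM (41.6 to 47.5) and 50.3 RPKM (47.2 to 53.5), a ratio of 1.13 (1.03 to 1.24). The NPC library was thus slightly above the ESC library on the RPM scale, but below it relative to the median gene, at -0.17 on the log2 scale. Counting each start position once left 397 positions in ESCs and 405 in NPCs, a log2 ratio of -0.01 when scaled by the library totals and of -0.24 when scaled by the start positions of each library. *Cdh2*, which encodes N-cadherin, lies on the minus strand at chr18:16747386-16967755 (ENSMUSG00000024304.8). It had 8 reads in ESCs and 156 in NPCs, or 0.232 RPKM (0.100 to 0.458) and 4.40 RPKM (3.73 to 5.14), a ratio of 18.9 (9.37 to 44.6). Its counts do not overlap within counting error, and the ratio was higher than that of 99.1% of all genes tested. Of 7267 stretches of 48 nt in its exons, 1304 occur again at chr4:86749334-86750943, which drew 0 reads in ESCs and 22 in NPCs. With these added, *Cdh2* had 8 and 178 reads, a ratio of 21.6 (10.7 to 50.8).

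Set against each other, *Cdh2* made up 0.519% (0.224 to 1.02%) of the summed RPKM of both cadherins in ESCs and 8.04% (6.84 to 9.38%) in NPCs. Per kilobase of exon, E-cadherin reads therefore remained the more numerous in both libraries, by 192 times in ESCs and 11.4 times in NPCs. This holds for the NPA RNA sequenced here, and poly(A) RNA of the cadherins was not measured. The shares depend on the length used for *Cdh2*. Its annotated exons, 8066 bases in all, include long untranslated parts with few reads, and over coding exons alone the share was 1.36% in ESCs and 19.2% in NPCs. *Cdh3*, which encodes P-cadherin, had 180 and 155 reads.

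*Epcam* (ENSMUSG00000045394.8, chr17:88035319-88050446, plus strand) encodes an epithelial cell adhesion molecule that ESCs carry too. It had 368 reads in ESCs and 280 in NPCs, or 42.2 RPKM (38.0 to 46.8) and 31.2 RPKM (27.6 to 35.1). The NPC library was lower, with a ratio of 0.739 (0.630 to 0.865), and it was below 0 on the log2 scale under all 11 alternative ways of counting or scaling. The range of these was -0.78 to -0.28.

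Keratins 8 and 18 pair with each other to form the filaments of simple epithelia, and keratin 19 is a further partner in such cells. *Krt8* (ENSMUSG00000049382.9, minus strand, chr15:101827142-101834773) and *Krt18* (ENSMUSG00000023043.6, plus strand, chr15:101858647-101862457) are neighbours on chromosome 15. *Krt8* had 156 reads in ESCs and 2361 in NPCs, or 20.2 RPKM (17.2 to 23.7) and 297 RPKM (285 to 310), a ratio of 14.7 (12.5 to 17.4). *Krt18* had 223 and 2414 reads, or 37.3 RPKM (32.6 to 42.5) and 392 RPKM (376 to 408), a ratio of 10.5 (9.16 to 12.1). *Krt19* (ENSMUSG00000020911.8, chr11:100002124-100009979, minus strand) had 151 and 583 reads, or 19.1 RPKM (16.1 to 22.4) and 71.4 RPKM (65.8 to 77.5), a ratio of 3.75 (3.13 to 4.51). All 3 keratins were thus higher in NPCs with intervals far apart.

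Both keratins 8 and 18 have counterparts elsewhere in the genome that hold part of their sequence, so reads were also looked up by the 48 nt they carry. Of 1382 windows of 48 nt in the exons of *Krt8*, 605 (43.8%) occur at 1 place in mm9, whereas 1063 of 1071 windows (99.3%) do in *Krt18*. The following 48 nt were read most often within coding exons, among reads that match the genome exactly. For *Krt8* they are the top sequence found at more than 1 place and the top found at 1 place, for *Krt18* the latter. They are in the sense of the gene with no part in capitals. They are examples that hold only a part of the reads counted.
Krt8, exon 4, chr15:101829902-101829949, minus strand, found at 2 places in mm9, 9 reads in ESCs and 239 in NPCs: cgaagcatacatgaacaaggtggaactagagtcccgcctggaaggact
Krt8, exon 5, chr15:101829210-101829257, minus strand, found at 1 place, 16 reads in ESCs and 219 in NPCs: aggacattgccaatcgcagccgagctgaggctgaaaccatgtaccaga
Krt18, exon 4, chr15:101861109-101861156, plus strand, found at 1 place, 21 reads in ESCs and 155 in NPCs: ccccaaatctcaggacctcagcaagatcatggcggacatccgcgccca

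With reads found at 1 place alone, *Krt8* had 95 reads in ESCs and 1550 in NPCs, a ratio of 14.9 (12.1 to 18.5), and *Krt18* had 218 and 2347, a ratio of 9.82 (8.54 to 11.3), both scaled by the total of such reads in each library. Neither ratio left the interval obtained from all reads. Counting each start position once left 74 positions in ESCs and 381 in NPCs for *Krt8*, and 98 and 319 for *Krt18*. The log2 ratios then were 2.32 and 1.66 when scaled by the library totals, and 2.09 and 1.43 when scaled by all start positions of each library, against 3.88 and 3.39 from all reads. Reads per start position were 2.11 in ESCs and 6.20 in NPCs for *Krt8* and 2.28 and 7.57 for *Krt18*. Abundant RNA and repeated amplification of a fragment cannot be told apart from such positions, and both genes were more than 2-fold higher either way.

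The place that shares most sequence with *Krt8* is a copy without introns at chr7:24142113-24143830, inside an intron of *Nlrp4e* and outside annotated exons. It drew 168 reads in ESCs and 2550 in NPCs, all on the plus strand. Of these, 120 and 1848 had a sequence that the gene also holds, so that their assignment to the copy was a choice among places. A further 43 and 628 reads matched the spliced *Krt8* transcript exactly across a junction of 2 exons, and they covered 6 of the 8 junctions in each library. The sequence was at no place in mm9 for 12 of these reads in ESCs and 172 in NPCs, at 1 place for 25 and 318, and at more places for 6 and 138. Reads with a sequence found at 1 place and no such junction numbered 2 in ESCs and 46 in NPCs. The junction sequence read most often is given next, with exon 4 in lower case and exon 5 in capitals, because it is placed at the copy although it differs from it.
Krt8, exons 4 and 5, placed at chr7:24142839-24142886, plus strand, 3 reads in ESCs and 83 in NPCs: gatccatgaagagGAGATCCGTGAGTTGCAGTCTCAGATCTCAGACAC
The copy differs from this sequence at 1 base, T6A, where the base of the copy comes first, positions count from 1 at the 5′ end of the printed sequence, and the base of the transcript comes last. With the reads at the copy added, *Krt8* had 324 reads in ESCs and 4911 in NPCs. The ratio was 14.7 (13.1 to 16.5) as before, but the levels became 42.0 and 618 RPKM, beside 37.3 and 392 RPKM for *Krt18*. In ESCs, 42.0 lies within the interval of *Krt18* (32.6 to 42.5). The added reads also include the 43 and 628 across exon junctions, of which 0 were counted for *Krt18* in either library, so the measures are unlike. The order of *Krt8* and *Krt18* in ESCs was therefore not settled by these counts. In NPCs, 618 lies above the interval of *Krt18* (376 to 408) and 297 below it. The order there turned on whether the reads at the copy were counted for *Krt8*. Among reads found at 1 place in NPCs, *Krt8* had 1550 over 605 such windows and *Krt18* had 2347 over 1063.

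*Vim* (ENSMUSG00000026728.3, chr2:13495554-13504453, plus strand) encodes vimentin, the filament protein typical of mesenchymal cells that neural progenitors and many cultured cells also make. It had 469 reads in ESCs and 706 in NPCs, or 47.0 RPKM (42.9 to 51.5) and 68.7 RPKM (63.7 to 74.0), a ratio of 1.46 (1.30 to 1.65). The NPC library was higher on the RPM scale, but relative to the median gene the log2 ratio was 0.20. With each start position counted once there were 203 and 244 positions, a log2 ratio of 0.22 when scaled by the library totals and of -0.01 when scaled by all start positions of each library. Among the filament proteins *Krt8*, *Krt18*, *Krt19* and *Vim*, vimentin made up 38.0% of the summed RPKM in ESCs and 8.29% in NPCs. *Krt8* and *Krt18* went the other way, from 16.4% and 30.2% to 35.8% and 47.3%. *Krt19* made up 15.4% in ESCs and 8.61% in NPCs, a lower share in NPCs as for vimentin. The share of *Vim* was lower in NPCs although its own level was higher, and the levels of all 3 keratins were higher by larger ratios. With the reads at the copy added to *Krt8*, vimentin made up 32.3% and 5.97%, and *Krt8* 28.9% and 53.8%. With each start position counted once, the share of vimentin in NPCs was 16.0%. The protein-coding genes nearest to *Vim* in level in both libraries, of 9843 with at least 50 reads, were *Gpx1*, *Scd2* and *Psmd2*, and those nearest to *Cdh1* were *Tnks2*, *Pomp* and *Cks1b*. The distances were 0.028 to 0.054 and 0.031 to 0.047 in log2 RPKM, over the 2 libraries.

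*Fn1* (ENSMUSG00000026193.8, chr1:71632094-71699774, minus strand) encodes fibronectin, a large glycoprotein of the matrix that binds integrins. Of the 5 mesenchymal genes, this 1 was lower in NPCs. There were 1815 reads in ESCs and 938 in NPCs, or 50.9 RPKM (48.6 to 53.3) and 25.6 RPKM (23.9 to 27.2), a ratio of 0.502 (0.463 to 0.543). This lies at the edge of 2-fold. Over reads of sequence found at 1 place, 1783 and 918, the log2 ratio was -1.0 when scaled by the library totals and -1.09 when scaled by the total of such reads. The integrin genes *Itgav* and *Itgb1*, whose products bind fibronectin, had 241 and 647 reads in ESCs and 852 and 2114 in NPCs, ratios of 3.43 and 3.17, so that they lay on the other side of 1 from *Fn1*.

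Fibronectin pre-mRNA is known for alternatively spliced exons that encode whole extra domains. Exons 25 (extra domain B) and 33 (extra domain A) are absent from some of the 3 annotated coding transcripts. Their sequences are given in the sense of the gene, because the reads counted below lie wholly inside them.
Fn1, exon 25, chr1:71660337-71660609, minus strand of mm9: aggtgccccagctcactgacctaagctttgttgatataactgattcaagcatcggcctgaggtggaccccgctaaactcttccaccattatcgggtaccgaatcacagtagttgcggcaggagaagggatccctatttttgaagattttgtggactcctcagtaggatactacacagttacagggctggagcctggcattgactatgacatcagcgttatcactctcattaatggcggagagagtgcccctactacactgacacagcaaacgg
Fn1, exon 33, chr1:71650234-71650503, minus strand of mm9: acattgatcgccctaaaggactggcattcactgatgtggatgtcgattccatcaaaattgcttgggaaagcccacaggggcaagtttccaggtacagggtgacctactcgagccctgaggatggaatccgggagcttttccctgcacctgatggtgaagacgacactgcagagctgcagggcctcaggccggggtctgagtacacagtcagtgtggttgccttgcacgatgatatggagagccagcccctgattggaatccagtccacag
Exon 25 held 36 whole reads in ESCs and 10 in NPCs, and exon 33 held 49 and 23. Per position where a whole read can start, exon 25 had 0.554 (0.387 to 0.771) of the density of 42 constitutive internal exons in ESCs and 0.278 (0.133 to 0.514) in NPCs. For exon 33 the values were 0.765 (0.563 to 1.02) and 0.648 (0.408 to 0.980). Intervals of the libraries overlapped for both exons, so a difference in their use was not detectable at this depth. Constitutive exons varied widely as well, from 4.96 to 70.7 reads per 100 positions in ESCs, and 8 of the 35 with at least 50 such positions lay below exon 25 there, as did 3 in NPCs.

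The transcription factors had the fewest reads. *Snai1* (ENSMUSG00000042821.7, chr2:167363695-167368314, plus strand), which encodes the repressor Snail, had 3 reads in ESCs and 87 in NPCs. Its level was 0.433 RPKM (0.0894 to 1.27) and 12.2 RPKM (9.77 to 15.0), a ratio of 28.2 with a wide interval of 9.32 to 139. *Zeb2* (ENSMUSG00000026872.8, chr2:44839154-44972915, minus strand), another repressor of epithelial genes, had 3 reads in ESCs and 54 in NPCs, or 0.0457 RPKM (0.00943 to 0.134) and 0.799 RPKM (0.600 to 1.04), a ratio of 17.5 (5.67 to 87.4). Both were higher in NPCs by more than counting error, and 68 of all genes tested had a log2 ratio above that of *Snai1*. Their levels nonetheless stayed below those of *Cdh1*, *Epcam* and the keratins, and 11.9% of protein-coding genes with at least 10 reads lay below *Zeb2* in NPCs. This rank depends on the length used, which for *Zeb2* was 15368 bases of annotated exons. In NPCs, its longest coding transcript had 8.23 read starts per kilobase in the coding part and 3.44 in the 3′ untranslated part.

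**Figure D2:**
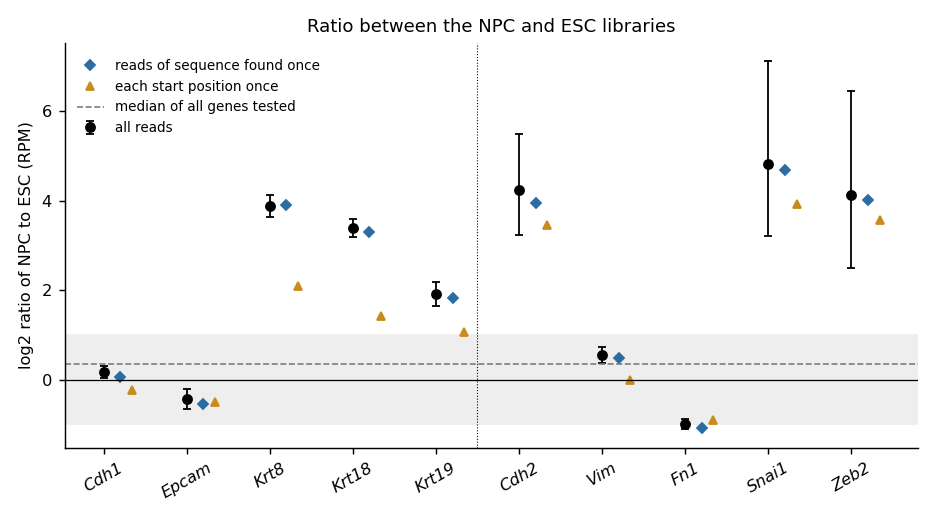
Log2 ratio of NPC to ESC in RPM for the 10 genes, from all reads (black, with exact 95% intervals for counting error), from reads of sequence found at 1 place (blue) and with each start position counted once (ochre), the latter pair scaled by the total of such reads or positions in each library. The grey band covers ratios within 2-fold and the dashed line is the median of all genes at 0.35, and *Krt8*, *Krt18*, *Krt19*, *Cdh2*, *Snai1* and *Zeb2* lie above the band in all 3 ways.

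Snail and Zeb proteins bind E-boxes of the sequence CAGGTG, which reads CACCTG on the other strand. The 250 bases upstream of annotated start sites were searched for both in RefSeq sequences of GRCm38.p6, which held 9 windows for 6 of the 10 genes (*Vim*, *Zeb2*, *Snai1*, *Krt8*, *Krt18* and *Epcam*). Over 32851 windows, 17.2% held the motif. It was present at *Epcam* 187 and 19 bases upstream, at *Krt8* 111 bases, at *Krt18* 214 bases and at *Snai1* 126 bases upstream, and in 0 windows of *Vim* and *Zeb2*. The windows of *Epcam* and *Krt8* are shown, with the motif in capitals, as a gene that was lower and a gene that was higher in the library with more *Snai1* and *Zeb2* reads.
Epcam, chr17:87635729-87635978, plus strand of GRCm38.p6: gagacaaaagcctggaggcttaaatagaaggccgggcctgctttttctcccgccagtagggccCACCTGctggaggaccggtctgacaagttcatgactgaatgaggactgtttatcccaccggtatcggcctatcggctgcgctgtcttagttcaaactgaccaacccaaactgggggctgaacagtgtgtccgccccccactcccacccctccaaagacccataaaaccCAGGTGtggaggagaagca
Krt8, chr15:102004343-102004592, minus strand of GRCm38.p6: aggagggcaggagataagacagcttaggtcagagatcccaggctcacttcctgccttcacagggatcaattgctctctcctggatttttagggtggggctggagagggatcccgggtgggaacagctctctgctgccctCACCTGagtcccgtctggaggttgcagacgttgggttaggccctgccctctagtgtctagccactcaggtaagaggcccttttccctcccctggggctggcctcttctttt
A match is a description of the sequence, and binding was not measured.

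Where the reads fell along each gene was examined next, since RNA with a poly(A) tail had been removed. Over the longest coding transcript, 49.3% of the *Cdh1* reads in ESCs and 53.7% in NPCs began past the midpoint, where the median over genes was 45.6% (6943 genes) and 47.1% (7889 genes). For *Epcam* the shares were 69.6% (64.5 to 74.3%) and 78.0% (72.4 to 82.9%), and for *Krt18* they were 67.3% and 65.5%. *Zeb2* in NPCs lay at the other end, with 13 of 52 reads past the midpoint, or 25.0% (14.0 to 38.9%), and so did *Cdh2* with 54 of 149, or 36.2% (28.5 to 44.5%). Of the *Cdh2* reads, 142 began in the coding part, 6 in the 3′ untranslated part and 1 in the 5′ untranslated part. *Snai1* differed, with 52 of 86 reads in the 3′ untranslated part.

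At the 5′ end of *Fn1*, the untranslated part had 29 reads from ESCs and 2 from NPCs, beside 1515 and 810 of the coding part. *Krt8* had 25 and 99 reads in its 5′ untranslated part and 112 and 1900 in its coding part, so that the coding part alone was further apart between the libraries than the 5′ untranslated part. Reads on the strand opposite to the exons were 0 in ESCs, against 4065 on the gene strand over the 10 genes, and 2 in NPCs against 8591, 1 each at *Snai1* and *Zeb2*.

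**Figure D3:**
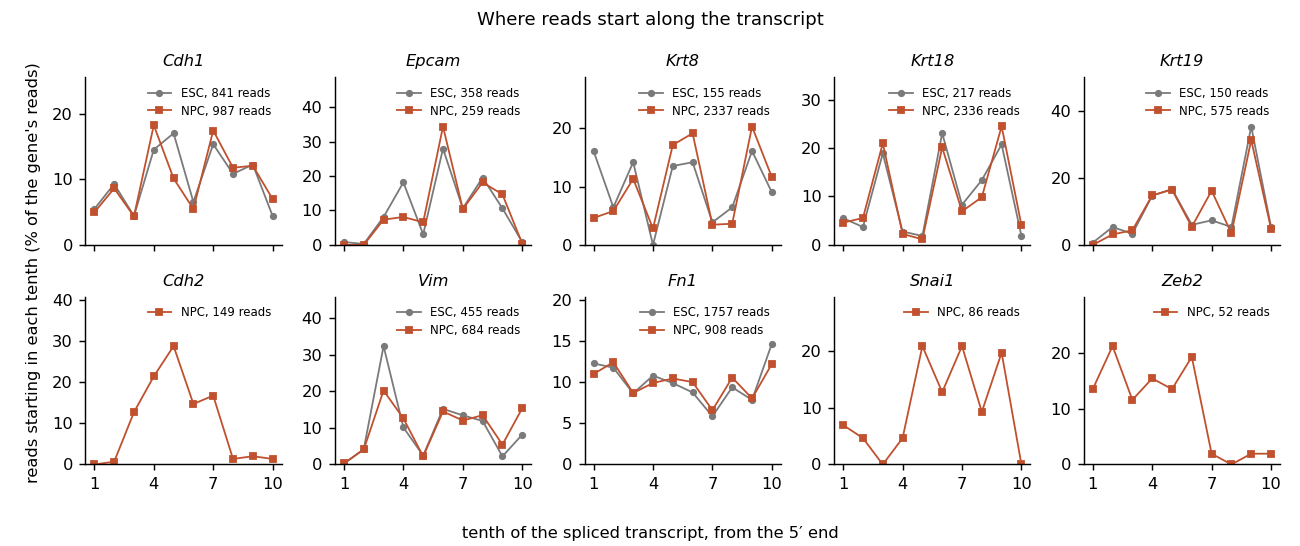
Reads that start in each of 10 equal parts of the longest coding transcript, counted from the 5′ end, as a percentage of the reads of the gene, for ESCs (grey circles) and NPCs (orange squares). The number of reads is given in each panel, libraries with fewer than 20 reads are left out, and *Krt18* has peaks in the same parts in both libraries, with 50 of 217 reads in part 6 in ESCs and 470 of 2336 in NPCs.

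Introns gave a second view of 8 of the genes, those with at least 10 intron reads. *Cdh1* had 192 intron reads in ESCs and 102 in NPCs, a ratio of 0.516 (0.402 to 0.659), whereas its exons had a ratio of 1.13 (1.03 to 1.24). The intervals do not meet, and on the RPM scale exon and intron reads lay on opposite sides of 1. Relative to the median gene, the exons of *Cdh1* were lower in NPCs too, at -0.17 on the log2 scale. *Fn1* was lower in NPCs over exons and introns alike, with 466 and 185 intron reads and a ratio of 0.385 (0.323 to 0.458). *Krt8* had 24 and 106 intron reads, a ratio of 4.29 (2.73 to 6.99), and *Krt18* had 21 and 80, a ratio of 3.70 (2.26 to 6.30), both higher in NPCs but by less than their exons.

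*Cdh2* had 10 and 77 intron reads, a ratio of 7.48 (3.85 to 16.2), and *Zeb2* had 3 and 39, a ratio of 12.6 (4.01 to 63.8). These overlapped the intervals of their exons. *Epcam* had 24 intron reads in each library and *Vim* had 4 and 12. As a share of the reads on the gene strand over exons and introns, introns held 18.1% for *Cdh1* in ESCs and 9.16% in NPCs, and 33.0% (27.0 to 39.5%) for *Cdh2* in NPCs. *Krt19* stood lowest, at 1.19% (0.478 to 2.43%) in NPCs.

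**Figure D4:**
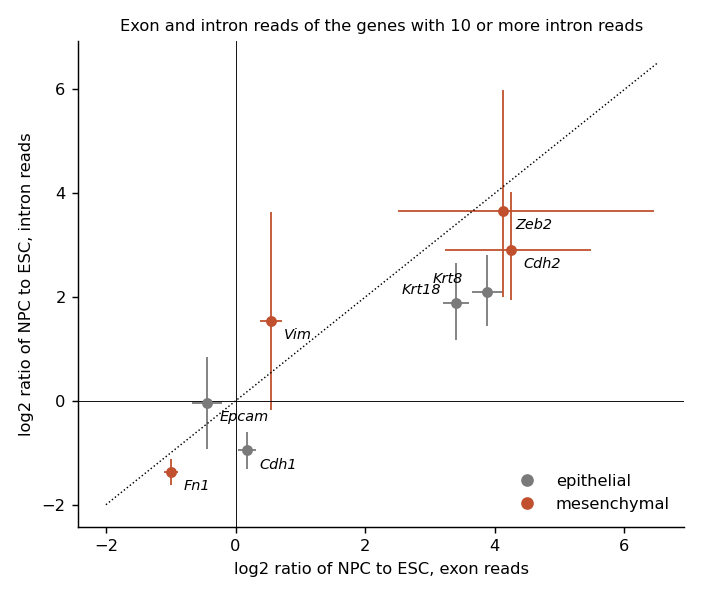
Log2 ratio of NPC to ESC over introns against that over exons, for the 8 genes with at least 10 intron reads, with exact 95% intervals for counting error, epithelial genes in grey and mesenchymal genes in orange. Points on the dotted line have equal ratios, and *Cdh1* lies below it, with exons above 0 and introns below 0 on the RPM scale.

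Genes that work with these 10 were taken from lists fixed by name. Of 26 genes of epithelial junctions and polarity, 11 were more than 2-fold higher in NPCs and 1 lower, where 25.5% and 13.3% of all genes tested were. The median log2 ratio of the list was 0.72 beside 0.35 for all genes. The highest and lowest with at least 50 reads were *Marveld2* (24 and 122 reads), which encodes tricellulin, *Dsc2* (49 and 213), a desmosomal cadherin, *Crb3* (32 and 24), a polarity gene, and *Tjp3* (136 and 45), a tight junction scaffold. The genes of beta-catenin and alpha-catenin, which link E-cadherin to actin, had ratios of 2.20 (*Ctnnb1*) and 1.54 (*Ctnna1*), and that of p120-catenin, which binds E-cadherin near the membrane, had a ratio of 2.15 (*Ctnnd1*), all above the 1.13 of *Cdh1*. These and the other genes named here outside the lists' extremes were chosen after their values were seen.

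Of 14 tested epithelial regulators, 2 were more than 2-fold higher and 1 lower, beside 25.5% and 13.3% of all genes tested, with a median of 0.32. *Esrp2*, a splicing factor of epithelial cells, had 15 and 108 reads, and *Prss8*, a membrane protease, had 55 and 250. *St14*, another membrane protease, had 661 and 400 reads, and *Elf3*, an epithelial transcription factor, had 237 and 201. Ratios varied among the mesenchymal regulators other than *Snai1* and *Zeb2*. Of 10 tested, 3 were more than 2-fold higher and 1 lower, with a median of 0.22, where 25.5% and 13.3% of all genes tested were. Among the 3 higher genes, the intervals of the ratio included 1 for *Twist1* (0.775 to 37.5) and *Foxc1* (0.940 to 19.9). *Zeb1* had 61 and 65 reads, *Snai2* had 9 in each library, *Snai3* had 28 and 4, and *Twist1* had 2 and 8. *Hmga2*, a chromatin protein, had 20 and 200 reads, *Tcf4* had 32 and 63, and *Lef1* had 27 and 25.

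Of 20 tested products typical of mesenchymal cells, 10 were more than 2-fold higher and 3 lower, with a median of 0.97. These are 50% and 15% of the list, where 25.5% and 13.3% of all genes tested were, so the share lower was near that of all genes. *Sparc*, a matrix glycoprotein, had 1151 and 13828 reads, and *Acta2*, smooth muscle actin, had 27 and 331. *Mmp2*, a matrix protease, and *Lox*, which crosslinks collagen, lay lowest at 160 and 35 and at 38 and 14 reads. *Cdh6*, another cadherin, had 0 reads in ESCs and 35 in NPCs. Of 12 genes of the TGF-beta pathway, which can induce *Snai1*, 6 were more than 2-fold higher and 4 lower, with a median of 0.90. The receptors *Tgfbr3* (27 and 359 reads) and *Tgfbr2* (20 and 176) were highest, and *Smad7* (685 and 252) and *Skil* (1358 and 522), both inhibitors of the pathway, were lowest.

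Among other cytoplasmic intermediate filament and linker genes, 1 of 12 tested was more than 2-fold higher and 4 were lower, with a median of -0.59. Of all genes tested, 25.5% were higher and 13.3% lower by this rule. The higher gene was *Krt7*, a keratin of simple epithelia, with 69 and 557 reads and a ratio of 7.84 (6.09 to 10.2). Of 48 keratin genes besides *Krt8*, *Krt18* and *Krt19*, 32 had 0 reads in both libraries and 4 reached 10 reads. Besides *Krt7*, the named genes were *Nes* (66 and 121 reads), *Prph* (56 and 2) and *Des* (81 and 37), which encode the filament proteins nestin, peripherin and desmin.

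The lists of cell types were set beside the 10 genes as well. Of the pluripotency genes, *Tdgf1* had 1061 reads in ESCs and 149 in NPCs, *Sox2* 879 and 134, *Zfp42* 707 and 289 and *Klf2* 140 and 80. Of the neural progenitor genes, *Nes* had 66 and 121 reads, *Ncam1* 100 and 104, *Tubb3* 109 and 87 and *Msi1* 99 and 60. Of the extraembryonic endoderm genes, *Gata6* had 8 and 459 reads, *Gata4* 61 and 1179, *Cubn* 80 and 529 and *Afp* 1 and 141. Of 5 tested trophoblast genes, 4 were more than 2-fold higher, where 25.5% of all genes tested were. The summed level of the list was 20.4 RPM in ESCs and 159 RPM in NPCs. *Hand1* had 4 and 56 reads. *Krt7* is on this list too and made up most of both sums, with 16.2 RPM in ESCs and 127 RPM in NPCs. Fibroblast genes had a median of 0.13, with 1 of 10 more than 2-fold higher and 3 lower, where 25.5% and 13.3% of all genes tested were. *Col1a2* had 51 and 165 reads, *Postn* 19 and 34, *Thy1* 79 and 12 and *Pdgfrb* 93 and 21, and *Lum* was at 0 in both libraries.

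**Figure D5:**
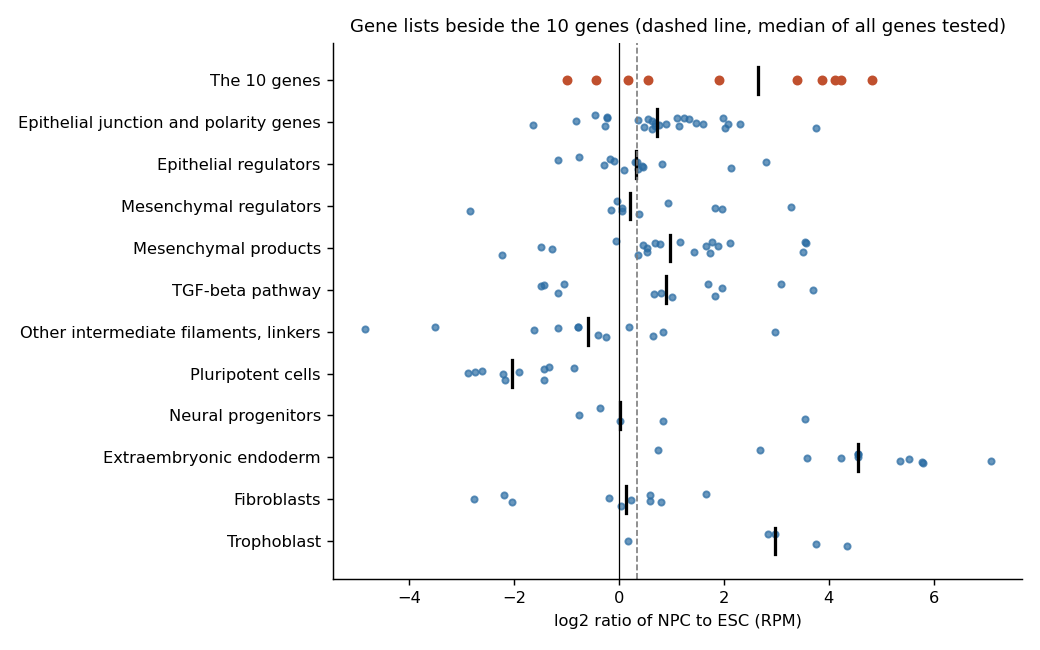
Log2 ratio of NPC to ESC of each gene with at least 10 reads in both libraries together, by list (blue points; a count of 0 was set to 3 reads), and of the 10 genes (orange), with the median of each list as a black bar and the median of all genes tested, 0.35, as a dashed line. The median of extraembryonic endoderm genes is 4.56 and that of pluripotent cells -2.03, and the 10 genes run from -0.995 for *Fn1* to 4.82 for *Snai1*.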

How the data were processed

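NPA RNA was sequenced from 1 ESC and 1 NPC library. Total RNA was depleted of poly(A) RNA and ribosomal RNA, fragmented, ligated and reverse-transcribed so that strand is kept, and amplified by PCR without molecular identifiers. The authors used Bowtie (version not given in the sources used here) to place reads of 50 nt on mm9, allowing 2 mismatches in the 45 nt seed, and a read that fitted several places got 1 of them. They removed mitochondrial, ribosomal and repeat reads. Alignment was not spliced, so reads across exon junctions are lost unless another place holds them. The deposited lists give the position, strand and 48 nt of each read, 1 line per read, with no count, score or normalization by the authors.

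Reads overlapping exons of GENCODE M1 genes by at least 1 base on the gene strand were counted and scaled to RPM by the library total and to RPKM by the length of all annotated exons. Genes with at least 10 reads in both libraries together were tested for size, and more than 2-fold was the threshold in place of a test. Counts have exact Poisson intervals, shares Clopper-Pearson intervals and ratios conditional binomial intervals, all at 95% and for counting error only. In ratios, a count of 0 was set to 3 reads. The 48 nt of each read were searched in mm9 in both orientations. The share found at 1 place was 78.2% in ESCs and 83.2% in NPCs.

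All 10 members are named. From each list the 2 highest and 2 lowest ratios among genes with at least 50 reads are named, and the 3 genes nearest in level to *Cdh1* and *Vim*. Other named genes were chosen after their values were seen. The members and lists were chosen with earlier results of these data known, so their counts are descriptions. *Eppk1*, *Sox1* and *Tfap2c* were not analysed here. Counting and intervals were tested on simulated data. Alternatives are given in the closing section. Scripts ran in Python 3.11.15 with numba 0.67.0, matplotlib 3.10.9, SciPy 1.17.1 and NumPy 2.4.6.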

Additional observations from a re-analysis of the deposited data

How the results depend on the processing

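No paired analysis was possible because there was 1 library per cell type and no test. *Krt8*, *Krt18*, *Krt19*, *Cdh2*, *Snai1* and *Zeb2* stayed more than 2-fold higher in NPCs under each of the other ways of counting or scaling, 11 for *Krt19* and *Zeb2* and 12 for the others. *Krt19* came close to the threshold with each start position counted once (79 and 200 positions). Its log2 ratio was then 1.07 when scaled by all start positions and 1.30 when scaled by the library totals, against 1.91 from all reads. *Cdh1* ranged from -0.24 to 0.18 on the log2 scale and was below 0 under 4 of 11, and *Vim* ranged from -0.01 to 0.57. The number of genes more than 2-fold lower was 0 from all reads and 1 (*Fn1*) when scaled by protein-coding exons without histone genes, by the median gene or with reads of sequence found at 1 place, by either scale. Scaled by the library totals, it was 0 with each start position counted once. The median of epithelial junction genes was 0.21 with each start position counted once and scaled by all start positions, 0.40 when scaled by protein-coding exons and 0.38 when scaled by the median gene, against 0.72. With each start position counted once and scaled by all start positions, the medians were -0.20 for mesenchymal regulators, -1.22 for pluripotent cells and 3.22 for extraembryonic endoderm. The share of *Cdh2* among both cadherins was 1.36% and 19.2% over coding parts and 1.13% and 12.9% with each start position counted once, for ESCs and NPCs. The share of *Vim* was 43.1% and 9.56% over coding parts, 40.5% and 9.47% with reads of sequence found at 1 place, 16.0% in NPCs with each start position counted once, 7.64% in NPCs with 47 bases taken off each exon, and 32.3% and 5.97% with the reads at the *Krt8* copy added. The last 2 alternatives, the addition of reads at copies to the ratios and the scaling of unique reads and start positions by the library totals were chosen after seeing the data. The cause of these shifts was not tested. In the share of *Vim* from reads of sequence found at 1 place, RPKM used the full exon length. Of the 48 nt windows, 43.8% occur at 1 place for *Krt8* and 100% for *Vim*, so *Krt8* is undercounted beside *Vim* in that setting. A length without repeat bases was not run, because the genome used here does not mark them. Of the 45 pairs of genes, 38 in ESCs and 44 in NPCs kept their order of RPKM over coding parts. Depth limits *Snai1* and *Zeb2* most, with 3 reads each in ESCs.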
